A study of Mus musculus with 18 samples.

Results

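Integrins are the cell surface receptors that hold a cell to its surrounding matrix, and laminins are the large matrix proteins that many of them bind. The genes described here were the 30 whose symbol on the array platform begins with Itga, Itgb, Lama, Lamb or Lamc followed by a number, out of 18193 genes on the array. They comprised 11 integrin alpha genes, 9 integrin beta genes, 5 laminin alpha genes, 3 laminin beta genes and 2 laminin gamma genes, read by 65 of 45037 probe sets. A gene with several probe sets was represented by the one whose signal, averaged over the 18 arrays, was highest. Integrin alpha genes named by a letter, such as Itgav, fell outside this naming rule and were counted in a separate list.

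The study compared mouse hepatoma Hepa-1c1c7 cells (wild type) with their mutant derivative c35, whose aryl hydrocarbon receptor (AHR) carries a missense mutation and cannot bind DNA. Cells of each line were treated for 8 hr with the solvent DMSO, with the dioxin TCDD or with benzo[a]pyrene (BaP), both of which are AHR ligands, and each of the 6 groups had 3 biological replicates. BaP was given at 5 µM in both lines and TCDD at 5 nM in c35 cells, and the same TCDD dose for wild-type cells comes from the study's methods because the labels give none. All cells came from a mouse liver tumor line. The c35 line is a single mutant derivative, so the Ahr mutation and any other difference between the lines cannot be told apart.

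An integrin is a pair of 1 alpha and 1 beta chain that spans the membrane, binds matrix outside the cell and, through adaptor proteins, links to the cytoskeleton inside. A laminin is a trimer of an alpha, a beta and a gamma chain, and laminins form the sheet of the basement membrane together with nidogens and other proteins. In normal liver, hepatocytes face a space with little basement membrane, and laminin is found mainly around bile ducts and vessels.

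The signals are log2 values per probe set, in which a difference of 1 is a doubling. A gene was called when the limma adjusted p was under 0.05 and the change exceeded 1.5-fold; within c35 cells the threshold was an adjusted p under 0.1 with no minimum change. Of the 30 genes, 13 had a mean signal under 5.66, the median of all probe set means: Itga1, Itga4, Itga8, Itgb2, Itgb3, Itgb4, Itgb6, Itgb8, Lama1, Lama3, Lama4, Lamb3 and Lamc3. The deposited values carry no detection call, so whether these 13 were expressed cannot be read from them.

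Pairs of arrays, over all treatments, correlated at 0.991 to 0.997 within wild type, at 0.995 to 0.998 within c35 and at 0.969 to 0.980 between the lines. The treatment was visible in Cyp1a1, the classical AHR target, whose signal rose by 3.28 with TCDD (adjusted p = 0.0217) and by 3.69 with BaP (adjusted p = 0.00186) in wild-type cells. The hepatocyte markers Alb, Afp, Krt8 and Krt18 had means of 11.18 or more in both lines with DMSO, whereas Apoa1, Apob and Hnf4a lay between 5.44 and 6.29, near the median of all probe sets. Of 9 measured hepatocyte markers, 2 were called between the lines in all 3 treatments, where 10.5% of all genes were: with DMSO, Alb was higher in wild type by 2.46 (adjusted p = 3.60e-14) and Fgb lower at -0.95 (adjusted p = 0.00210). Ttr differed by -0.22 with DMSO (adjusted p = 0.158). Among markers of other cell types, 2 of 5 leukocyte markers (Cd68 and Csf1r, known from macrophages) and 2 of 4 bile duct markers (Krt7 and Krt19) were called lower in wild type in all 3 treatments, 4 of 7 fibroblast markers were called (Pdgfra and Pdgfrb higher, Acta2 and Col3a1 lower), and 0 of 6 endothelial markers were. The other leukocyte markers, Ptprc, Cd3e and Lyz2, were not called, at 0.08, -0.06 and -0.04 with DMSO. The log2 summed signal of the leukocyte list was 10.86 to 11.11 in wild type and 12.12 to 12.30 in c35, with the pan-leukocyte marker Ptprc at 2.75 to 3.00 with DMSO. Such a sum mostly follows its brightest gene, here Csf1r, with means of 10.75 in wild type and 12.03 in c35. For the bile duct list the sum was 11.01 to 11.31 in wild type and 11.90 to 12.13 in c35. Its brightest gene, Krt7, had means of 10.89 and 11.85. The part of any of these marker differences in the results below was not tested. The difference between the 3′ and 5′ probe sets of Actb, a measure of how complete the RNA was, was 0.73 to 1.38 in wild-type arrays and 0.30 to 0.53 in c35 arrays, so the 2 lines did not overlap in it. A fit that holds it as a covariate therefore cannot tell RNA completeness and line apart.

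Between the lines, the laminin beta chain gene Lamb1 and the integrin beta gene Itgb5 were higher in wild type, and the integrin genes Itga7 and Itgb7 were lower, whichever treatment the cells had received. With DMSO, 7 of 30 genes (23.3%) were called, against 14.04% of all genes. Lamb1, Itgb5 and Itga10 were higher in wild type, 3 of 30 against 7.52% of all genes, and Itga6, Itga7, Itgb6 and Itgb7 were lower, 4 of 30 against 6.52%. With TCDD, 7 genes (23.3%) were called against 14.97% of all genes, 3 higher (8.65% of all genes) and 4 lower (6.32%), with Itgb4 in place of Itga6. With BaP, 8 genes (26.7%) were called against 15.8% of all genes, 4 higher (8.98%) and 4 lower (6.83%), with Itga3 added to the higher genes. These 3 comparisons set different arrays of the same lines against each other. Their spread was estimated in a single fit over all 18 arrays. In all 3 comparisons, 6 genes were called in the same direction, where 10.5% of all genes were. Itga10, Itgb5 and Lamb1 were higher and Itga7, Itgb6 and Itgb7 lower. The 9 wild-type and the 9 c35 arrays did not overlap for 9 of the 30 genes, 3 higher and 6 lower in wild type, a count close to the 28.3% of all genes for which they did not overlap. The median log2 difference with DMSO was -0.03 over the 30 genes and -0.03 over all genes. The median size of the difference was 0.26 against 0.18 with DMSO, 0.20 against 0.19 with TCDD and 0.25 against 0.19 with BaP.

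**Figure D1:**
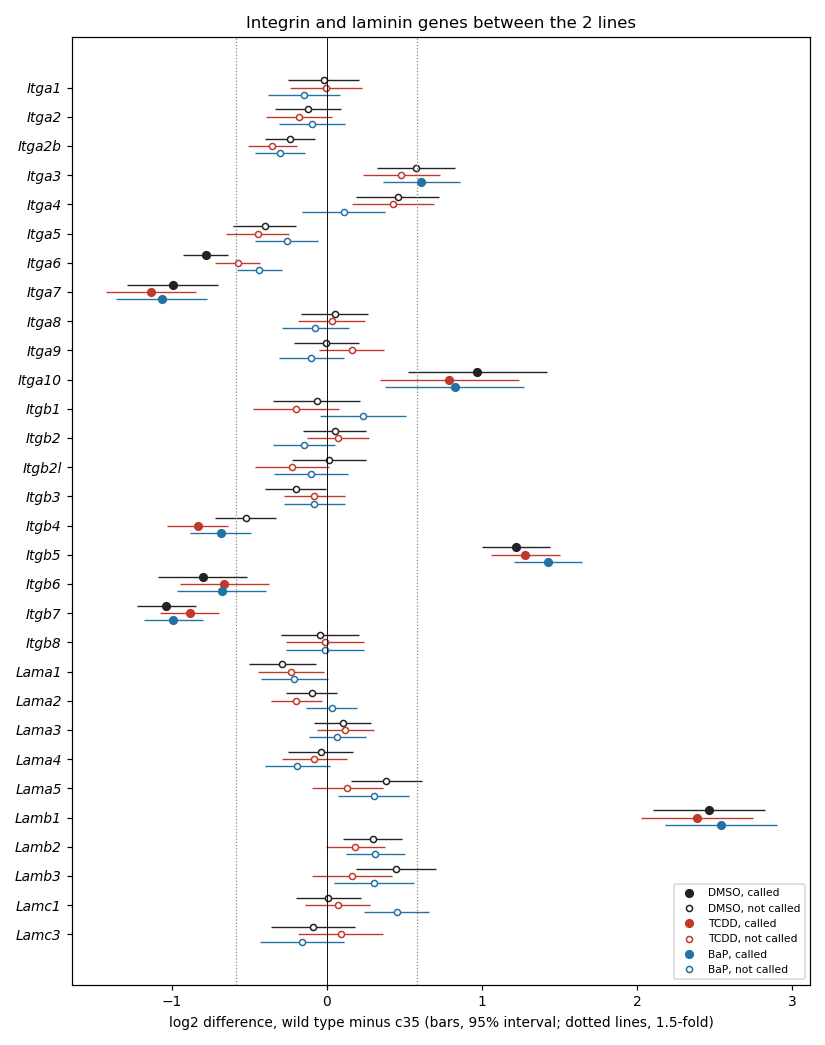
Log2 difference (wild type minus c35) of the 30 integrin and laminin genes on the horizontal axis, with DMSO (black), TCDD (red) and BaP (blue), bars for the 95% interval and filled points for called genes. Lamb1 lies at 2.39 to 2.54, Itgb5 at 1.22 to 1.43, and Itga7 and Itgb7 lie at -0.88 or lower in all 3 treatments.

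Lamb1 had the largest difference among the 30 genes. It encodes the beta chain found in most laminins of developing and adult tissue. Its wild-type signals were 8.13, 8.11 and 8.35 with DMSO, 8.24, 8.37 and 7.76 with TCDD and 8.44, 8.16 and 8.45 with BaP. The c35 signals were 5.54, 5.89 and 5.76 with DMSO, 5.76, 5.55 and 5.90 with TCDD and 5.49, 5.66 and 6.27 with BaP. Every wild-type array lay above every c35 array, and the lowest wild-type array was TCDD replicate 3. The difference was 2.46 ± 0.17 (SE, n = 3 per line) with DMSO, a 5.52-fold higher signal in wild type (adjusted p = 4.91e-10). With TCDD it was 2.39 (5.23-fold, adjusted p = 7.08e-10) and with BaP 2.54 (5.82-fold, adjusted p = 2.71e-10). A second Lamb1 probe set, 1424113_at, gave 2.45, 2.40 and 2.71 in the same order, while the remaining 2 probe sets, both of lower signal, gave -0.15 and 0.47 with DMSO and were not called. The mean of all 4 probe sets differed by 1.31 with DMSO, 1.34 with TCDD and 1.41 with BaP and was still called.

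Itgb5 encodes the beta chain that pairs with the integrin alpha V chain in a vitronectin receptor. Wild-type arrays read 9.99, 9.61 and 9.60 with DMSO, 9.73, 9.61 and 9.56 with TCDD and 9.82, 9.70 and 9.84 with BaP. In c35 cells the signals were 8.64, 8.61 and 8.28 with DMSO, 8.21, 8.36 and 8.48 with TCDD and 8.32, 8.34 and 8.43 with BaP. The lines did not overlap, and replicate 1 of the wild-type DMSO group was the highest array. The gene was higher in wild type by 1.22 ± 0.11 (SE, n = 3 per line) with DMSO (2.33-fold, adjusted p = 1.02e-08), by 1.28 with TCDD (adjusted p = 4.69e-09) and by 1.43 with BaP (adjusted p = 9.73e-10). All 4 Itgb5 probe sets were called in all 3 treatments, with differences of 1.02 to 1.45. Among them, 1456133_x_at and 1456195_x_at carry a suffix that marks probes that can also match other sequences. The value of 1.45 came from 1456195_x_at.

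The sequence before the start of Lamb1 and of Itgb5, the 2 genes with the largest differences, is shown with that of Itgb6, a gene lower in wild type. AHR with its partner ARNT binds DNA at the core motif GCGTG, which reads CACGC on the other strand, and a match to either is in capitals. The sequences are RefSeq promoter windows of assembly GRCm38.p6, written 5′ to 3′ along the gene. Lamb1 (chr12:31265043-31265145, plus strand, cut to the 103 bases that precede the annotated gene) held CACGC, Itgb5 (chr16:33829415-33829664, plus strand) held GCGTG, and Itgb6 (chr2:60722604-60722853, minus strand, the window at its outermost start) held no match.
Lamb1: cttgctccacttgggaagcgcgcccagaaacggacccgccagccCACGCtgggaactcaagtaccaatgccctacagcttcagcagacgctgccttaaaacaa
Itgb5: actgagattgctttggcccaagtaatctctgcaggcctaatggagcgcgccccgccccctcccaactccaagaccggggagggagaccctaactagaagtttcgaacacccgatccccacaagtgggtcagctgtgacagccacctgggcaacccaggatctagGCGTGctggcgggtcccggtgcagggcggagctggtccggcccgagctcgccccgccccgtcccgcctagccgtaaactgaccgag
Itgb6: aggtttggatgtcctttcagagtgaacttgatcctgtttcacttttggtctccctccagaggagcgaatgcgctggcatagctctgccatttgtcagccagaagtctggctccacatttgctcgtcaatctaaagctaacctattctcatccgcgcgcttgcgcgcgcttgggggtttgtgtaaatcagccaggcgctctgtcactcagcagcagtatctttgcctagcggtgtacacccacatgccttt
The match began 206 bases before the transcript start of the Lamb1 window and 86 bases before that of Itgb5. For Lamb1 that transcript start lies inside the annotated gene, past the end of the printed bases. For Itgb5 it is the start of the annotated gene, so the distances are not counted from like points. Of the 30 genes, 20 had such a window, and 5 of these 20 (25%: Itga2, Itga9, Itgb5, Lamb1 and Lamb3) held the motif on either strand within 250 bases, against 30.9% of 27025 genes. Of these, Itga2, Itga9 and Lamb3 were not called between the lines. The windows of Itga10, higher in wild type, and Itgb7, lower, held no match. Itga6, Itga7 and Itgb4 had no window. Any part of the motif in the line differences was not tested.

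Among Itga3, Itga6 and Itga7, integrin alpha genes known for binding laminin, 1 was higher and 2 were lower in wild type in at least 1 treatment. Itga7 encodes the laminin receptor chain best known from muscle. It read 5.47, 5.74 and 5.68 in wild type with DMSO, 5.68, 5.18 and 5.81 with TCDD and 5.62, 5.39 and 5.52 with BaP. The c35 arrays read 6.47, 6.67 and 6.73 with DMSO, 6.44, 6.78 and 6.86 with TCDD and 6.63, 6.56 and 6.53 with BaP. The lines did not overlap. The log2 difference was -0.99 ± 0.14 (SE, n = 3 per line) with DMSO, 1.99-fold lower in wild type (adjusted p = 7.57e-06), -1.13 with TCDD (adjusted p = 1.27e-06) and -1.07 with BaP (adjusted p = 2.80e-06).

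Itga6 encodes the alpha chain of the main epithelial laminin receptors. Its wild-type signals were 10.42, 10.32 and 10.43 with DMSO, 10.41, 10.41 and 10.31 with TCDD and 10.57, 10.58 and 10.58 with BaP. Those of c35 were 11.29, 11.19 and 11.04 with DMSO, 10.98, 10.90 and 10.97 with TCDD and 11.05, 10.88 and 11.10 with BaP. All wild-type arrays were lower than all c35 arrays, and the gap was widest with DMSO. The difference of -0.78 ± 0.07 (SE, n = 3 per line) with DMSO was called (1.72-fold lower, adjusted p = 1.42e-08). With TCDD it was -0.57 (adjusted p = 9.32e-07) and with BaP -0.44 (adjusted p = 3.00e-05), both under 1.5-fold. The second Itga6 probe set, 1422444_at, gave larger differences of -1.96, -1.85 and -1.62 and was called in all 3 treatments. The mean of both probe sets differed by -1.37, -1.21 and -1.03 and was called in each treatment.

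Itga3 encodes another laminin-binding alpha chain of epithelia. Wild-type signals were 12.13, 11.70 and 11.75 with DMSO, 11.59, 11.58 and 11.48 with TCDD and 11.84, 11.91 and 11.83 with BaP. They were 11.41, 11.36 and 11.09 with DMSO, 11.17, 10.98 and 11.07 with TCDD and 11.01, 11.57 and 11.18 with BaP in c35 cells. Within each treatment the lines did not overlap, but over all treatments c35 BaP replicate 2 exceeded wild-type TCDD replicate 3. The difference of 0.61 ± 0.12 (SE, n = 3 per line) with BaP was just past 1.5-fold (adjusted p = 0.000324), and those of 0.57 with DMSO (adjusted p = 0.000624) and 0.48 with TCDD (adjusted p = 0.00296) were just under it. The BaP call was lost without c35 BaP replicate 1 (0.49) or 3 (0.57), or without wild-type BaP replicate 2 (0.58). The DMSO difference was called under quantile normalization (0.62) and without c35 DMSO replicate 1 (0.64) or 2 (0.61) or wild-type DMSO replicate 2 (0.65) or 3 (0.63). Another Itga3 probe set, 1460305_at, went the other way, at -1.07 with DMSO (adjusted p = 0.000113) and -1.04 with TCDD (adjusted p = 0.000150).

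Itga10, a collagen receptor chain known from cartilage, was higher in wild type. It read 6.99, 6.06 and 6.03 with DMSO, 6.10, 6.70 and 6.03 with TCDD and 6.24, 6.60 and 6.16 with BaP in wild type. In c35 it read 5.67, 5.13 and 5.36 with DMSO, 5.42, 5.61 and 5.44 with TCDD and 5.31, 5.65 and 5.57 with BaP. The lines did not overlap, although each wild-type group held 1 array above the other two. The differences were 0.97 ± 0.21 (SE, n = 3 per line) with DMSO (1.96-fold, adjusted p = 0.00112), 0.79 with TCDD (adjusted p = 0.00604) and 0.82 with BaP (adjusted p = 0.00423). With the Actb 3′ to 5′ difference as a covariate they were 0.36, 0.15 and 0.23 and no longer called, and the TCDD call was also lost without wild-type TCDD replicate 2 (0.58, adjusted p = 0.0548).

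Of the 7 other integrin alpha genes, none was called between the lines. Itga2b, the alpha chain of the platelet fibrinogen receptor, was lower on every wild-type array than on any c35 array, but by small amounts of -0.24 with DMSO (adjusted p = 0.0191), -0.35 with TCDD (adjusted p = 0.00101) and -0.30 with BaP (adjusted p = 0.00366). Itga5, the fibronectin receptor chain, differed by -0.40, -0.44 and -0.26 in the same order (adjusted p = 0.00250, 0.000947 and 0.0431). Itga4, whose product binds VCAM1 and fibronectin, differed by 0.46, 0.43 and 0.11 (adjusted p = 0.00746, 0.0113 and 0.577). The collagen receptor chains Itga1 and Itga2 and the genes Itga8 and Itga9 differed by -0.18 to 0.16, with no adjusted p under 0.05.

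**Figure D2:**
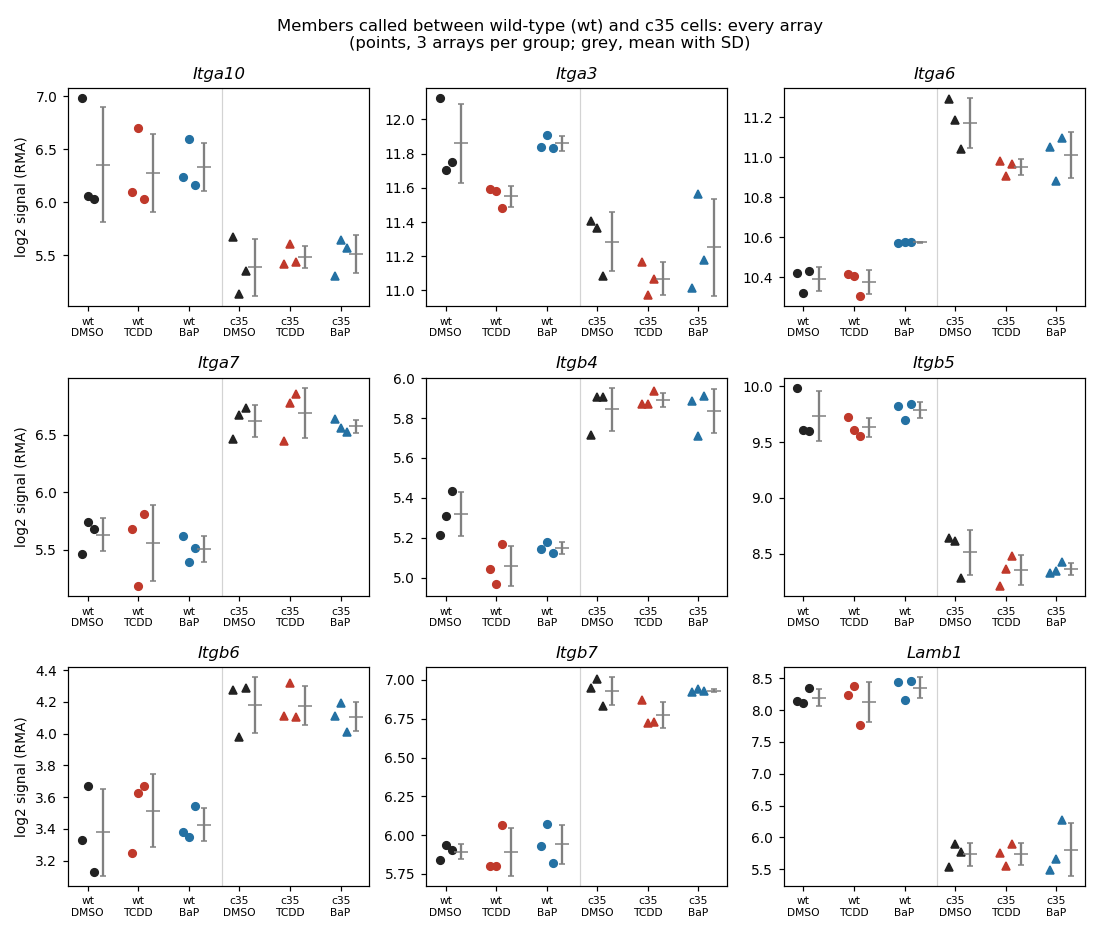
Log2 signal of the 9 genes called between the lines in at least 1 treatment, on each of the 18 arrays (circles wild type, triangles c35; black DMSO, red TCDD, blue BaP), with the group mean and SD in grey. The lines separate completely for every gene but Itga3, where c35 BaP replicate 2 (11.57) lies above the lowest wild-type array (11.48).

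The integrin beta genes Itgb4, Itgb6 and Itgb7 were lower in wild type. Itgb7 encodes the beta chain of lymphocyte integrins that bind MAdCAM1, VCAM1 and E-cadherin. Wild-type signals were 5.84, 5.94 and 5.90 with DMSO, 5.80, 5.80 and 6.07 with TCDD and 5.93, 6.07 and 5.82 with BaP. In c35 they were 6.95, 7.00 and 6.83 with DMSO, 6.87, 6.72 and 6.73 with TCDD and 6.92, 6.94 and 6.93 with BaP. Replicates lay close together and the lines were far apart. The differences were -1.04 ± 0.09 (SE, n = 3 per line) with DMSO (2.05-fold lower, adjusted p = 1.39e-08), -0.88 with TCDD (adjusted p = 1.15e-07) and -0.99 with BaP (adjusted p = 2.29e-08). As this gene is best known from lymphocytes, the leukocyte markers are given beside it. The lymphocyte marker Cd3e read 5.56 to 6.25 over the wild-type arrays and 5.74 to 6.06 over those of c35. The pan-leukocyte marker Ptprc read 2.86 to 3.38 and 2.72 to 3.05, under the median of all probe set means. Cd3e, Ptprc and Lyz2 were not called in any treatment. Cd68 and Csf1r were called lower in wild type in all 3 treatments, at -1.39 and -1.25 with DMSO. Any part of these marker differences in that of Itgb7 was not tested. Each array read the RNA of a whole culture of a single cell line, so differences among the cells of a culture cannot be seen.

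Itgb6 encodes a chain that pairs with alpha V in epithelia. It read 3.33, 3.67 and 3.13 with DMSO, 3.25, 3.63 and 3.67 with TCDD and 3.38, 3.35 and 3.55 with BaP in wild type. For c35 the values were 4.27, 3.98 and 4.29 with DMSO, 4.11, 4.32 and 4.10 with TCDD and 4.11, 4.19 and 4.01 with BaP. The lines did not overlap, but all 18 values were under the median of all probe sets. The gene was lower by -0.80 ± 0.14 (SE, n = 3 per line) with DMSO (1.74-fold, adjusted p = 8.86e-05), -0.66 with TCDD (adjusted p = 0.000616) and -0.68 with BaP (adjusted p = 0.000460). Its TCDD call was lost without wild-type TCDD replicate 1 (-0.53), and the TCDD and BaP calls with the Actb covariate (-0.48 and -0.51).

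Itgb4, the partner of Itga6 in the hemidesmosomes that anchor epithelial cells, was also dim. Its signals were 5.21, 5.31 and 5.43 with DMSO, 5.04, 4.97 and 5.17 with TCDD and 5.15, 5.18 and 5.12 with BaP in wild type. They were 5.72, 5.91 and 5.91 with DMSO, 5.87, 5.87 and 5.93 with TCDD and 5.88, 5.71 and 5.91 with BaP in c35. No wild-type array reached the lowest c35 array. The difference of -0.52 ± 0.09 (SE, n = 3 per line) with DMSO was under 1.5-fold (adjusted p = 0.000130), and those of -0.83 with TCDD (1.78-fold, adjusted p = 3.67e-07) and -0.68 with BaP (1.61-fold, adjusted p = 4.85e-06) were called. With the Actb covariate the BaP difference was -0.48 and not called.

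The other 5 integrin beta genes were not called. Itgb1, the beta chain shared by most laminin, collagen and fibronectin receptors, differed by -0.06, -0.20 and 0.23 with DMSO, TCDD and BaP (adjusted p = 0.772, 0.293 and 0.203). The leukocyte chain Itgb2 and its relative Itgb2l, the platelet and endothelial chain Itgb3, and Itgb8, which pairs with alpha V, differed by -0.22 to 0.07, with no adjusted p under 0.05.

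Of the laminin genes other than Lamb1, none was called. Lama5, the alpha chain most widespread in adult basement membranes, differed by 0.38, 0.13 and 0.30 with DMSO, TCDD and BaP (adjusted p = 0.00916, 0.403 and 0.0374). Lamb2, which can take the place of Lamb1 in the trimer, differed by 0.30, 0.18 and 0.31 (adjusted p = 0.0156, 0.135 and 0.0101). Lamb3, a chain of the epithelial laminin that also contains Lama3, differed by 0.45, 0.16 and 0.31 (adjusted p = 0.00683, 0.351 and 0.0612). Lamc1, the gamma chain of most laminins, differed by 0.01 and 0.07 with DMSO and TCDD and by 0.45 with BaP (adjusted p = 0.957, 0.652 and 0.00109), all under 1.5-fold. Lama1, the main alpha chain of the early embryo, differed by -0.29, -0.23 and -0.21 (adjusted p = 0.0357, 0.0934 and 0.133). Lama2 of muscle, Lama3 of epithelia, Lama4 of vessels and Lamc3 differed by -0.20 to 0.12, with no adjusted p under 0.05.

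Probe sets of the same gene did not always read alike. Of the genes called between the lines, Itga7, Itga10, Itgb4 and Itgb7 had 1 probe set each, so this could not be checked for them. Of the 65 probe sets, 8 were called higher and 8 lower in wild type with DMSO, 8 and 8 with TCDD, and 9 and 7 with BaP. Of all 45037 probe sets, 14.3% were called with DMSO (8.05% higher and 6.27% lower), 14.99% with TCDD (8.71% and 6.28%) and 15.6% with BaP (9.18% and 6.43%). The second Lamc1 probe set, 1423886_at, was lower in wild type by -1.82 with DMSO (adjusted p = 1.33e-06), -1.43 with TCDD and -1.36 with BaP, where the brighter Lamc1 probe set gave 0.01 with DMSO. It ranged from 6.49 to 7.54 in wild type and from 8.35 to 8.77 in c35, with no overlap. An Itga5 probe set, 1423268_at, gave -0.89, -0.72 and -0.67 and was called in all 3 treatments, unlike the brightest Itga5 probe set. An Itgb1 probe set, 1426920_x_at, gave 0.74, 0.64 and 0.65 and was likewise called, whereas the other 5 Itgb1 probe sets were not. The suffix x_at marks probes that can also match other sequences.

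In a fit chosen after these differences were seen, the Actb 3′ to 5′ difference was added as a covariate for the same probe sets. The lines did not overlap in that covariate, so calls lost or kept in this fit cannot tell RNA completeness from line. The Lamc1 probe set 1423886_at then gave -1.23 with DMSO (adjusted p = 0.00507) and was no longer called with TCDD (-0.80) or BaP (-0.78). The Itga3 probe set 1460305_at gave -0.28 with DMSO and the Itga5 probe set 1423268_at gave -0.56, neither called, whereas the Itgb1 probe set 1426920_x_at remained called at 0.94, 0.85 and 0.85 with DMSO, TCDD and BaP. The Itga6 probe set 1422444_at remained called at -1.51, -1.37 and -1.17 with DMSO, TCDD and BaP. The second Lamb1 probe set gave 2.46, 2.40 and 2.72, and the 3 further Itgb5 probe sets gave 0.79 to 1.21, all called.

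**Figure D3:**
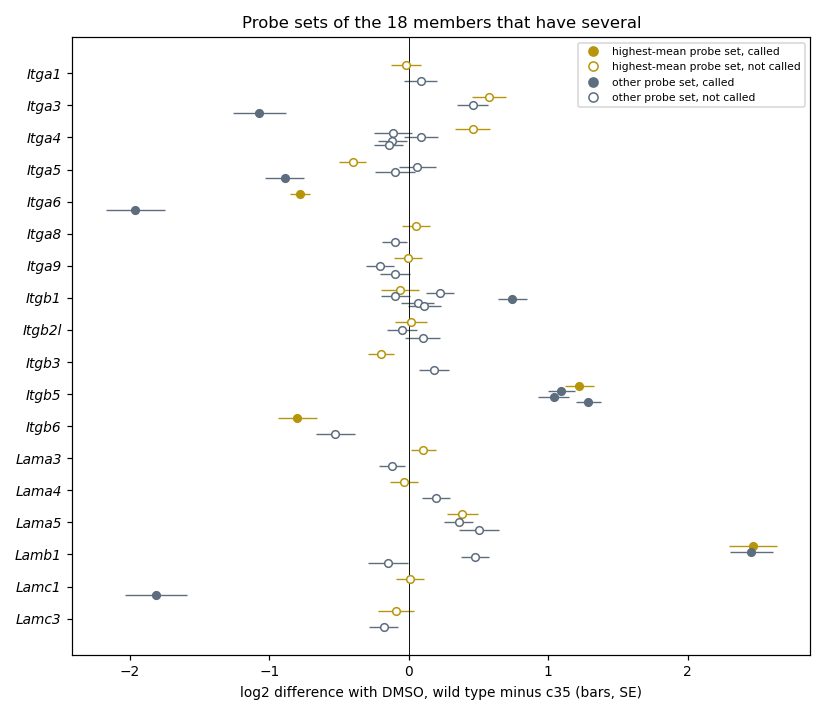
Log2 difference with DMSO (wild type minus c35, bars SE) for each probe set of the 18 genes with more than 1 probe set, with the probe set of highest mean in gold, the others in grey and called ones filled. All 4 Itgb5 probe sets lie between 1.04 and 1.29, whereas those of Lamc1 lie at 0.01 and -1.82 and those of Itga3 at 0.57, 0.46 and -1.07.

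The ligands themselves moved none of the 30 genes past the threshold. With TCDD in wild-type cells 0 of 30 genes were called by limma, where 0.379% of all genes were. At an unadjusted p under 0.05 there were 5 genes, all lower with TCDD: Lama5, Itgb4, Itga3, Itga5 and Lamb2, and 14.3% of all genes had such a p. Lama5 had the lowest adjusted p of the 30. Its wild-type signals were 10.999, 10.50 and 10.57 with DMSO and 10.22, 10.28 and 10.36 with TCDD, so the groups did not overlap, with DMSO replicate 1 the highest and TCDD replicate 1 the lowest. The difference was -0.40 ± 0.11 (SE, n = 3 per group, adjusted p = 0.109), and DMSO replicate 1 was also the array with the largest Actb 3′ to 5′ difference, 1.38, whose part in it was not tested. The others were -0.31 for Itga3 (adjusted p = 0.278), -0.26 for Itgb4 (0.239), -0.23 for Itga5 (0.325) and -0.22 for Lamb2 (0.330). The 95% intervals of 29 of the 30 genes lay within 1.5-fold in either direction, the exception being Lama5, whose interval reached -0.64.

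With BaP in wild-type cells 0 of 30 genes were called by limma, against 1.32% of all genes, and 3 had an unadjusted p under 0.05 (19.2% of all genes did). Itga6 was 0.18 higher (adjusted p = 0.155), and its BaP arrays all lay above the DMSO arrays. Lamc1 was 0.22 higher (adjusted p = 0.257), with signals of 11.16, 11.12 and 11.09 with DMSO and 11.29, 11.41 and 11.35 with BaP. Itga1 differed by -0.23 (adjusted p = 0.299). All 30 intervals lay within 1.5-fold, from -0.47 to 0.51. The TCDD and BaP comparisons share the DMSO arrays.

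Between TCDD and BaP in wild-type cells, given at different doses, 0 of 30 genes were called by limma, against 0.258% of all genes. At an unadjusted p under 0.05, 5 genes were lower with TCDD than with BaP, Itga5, Itga3, Lamc1, Lama5 and Itga6, and 15.9% of all genes had such a p. Itga5 had the lowest adjusted p (0.114), at -0.32. All 30 intervals lay within 1.5-fold, the lowest bound being -0.58.

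Within c35 cells 0 of 30 genes were called by limma with TCDD and 0 with BaP, and 0% of all genes were called in either comparison. At an unadjusted p under 0.05 stood Itga6 with TCDD (-0.22, adjusted p = 0.963), and Itga6 and Lamc1 with BaP (-0.16 and -0.22, both adjusted p = 0.9998). Over all genes 5.16% and 3.53% had such a p with TCDD and BaP. All 30 intervals lay within 1.5-fold in both comparisons, from -0.47 to 0.57.

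The test of the difference in response between the lines called 0 of 30 genes by limma for TCDD (0.280% of all genes) and 0 for BaP (1.34% of all genes). For TCDD, 2 genes had an unadjusted p under 0.05, Itgb4 (-0.31, adjusted p = 0.665) and Itga6 (0.21, adjusted p = 0.715), where 7.90% of all genes did. For BaP there were also 2, Itga6 (0.35 ± 0.10, SE, adjusted p = 0.0867) and Lamc1 (0.44 ± 0.14, SE, adjusted p = 0.150), where 14.5% of all genes did. The c35 signals of Lamc1 were 11.24, 11.22 and 10.88 with DMSO and 10.98, 10.60 and 11.11 with BaP, so BaP replicate 2 was the lowest. That array was also the lowest of all 18 for Itgb1, at 10.26.

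**Figure D4:**
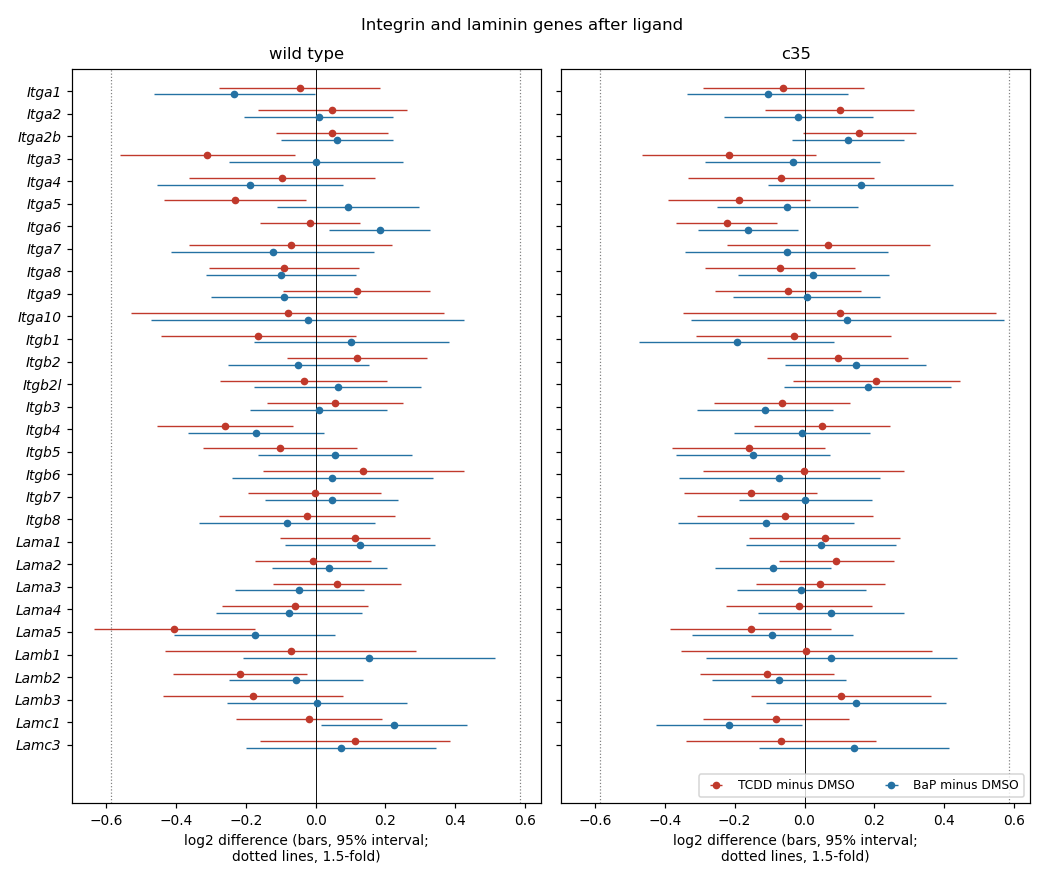
Log2 difference (ligand minus DMSO, bars 95% interval) of the 30 genes with TCDD (red) and BaP (blue), in wild type on the left and in c35 on the right, with dotted lines at 1.5-fold. No gene was called in any of the 4 comparisons, and the interval of Lama5 with TCDD in wild type (-0.64) is the only one to cross a dotted line.

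Some partners and ligands of these receptors were called between the lines, and their counts with DMSO are read beside the 7.52% of all genes called higher and 6.52% called lower in wild type. Of 5 measured integrin alpha genes named by letter, Itgav, the chain that pairs with Itgb5 and Itgb6, was higher in wild type by 0.76 with DMSO (adjusted p = 1.37e-07), 0.86 with TCDD and 0.97 with BaP, and none of the other 4 was called. Of 17 measured matrix ligands other than laminins and collagens, 4 were higher and 1 lower with DMSO (29.4% called, against 14.04% of all genes). Fbln1, a fibulin of basement membranes, was 2.75 higher (adjusted p = 2.56e-12), Nid1, the nidogen that links laminin to collagen, 1.29 higher (adjusted p = 5.89e-10), and Fn1, fibronectin, 1.15 higher (adjusted p = 1.53e-08). Tnc, tenascin C, was lower at -1.19 (adjusted p = 8.08e-10).

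Of 28 measured activators and adaptors, which couple integrins to the cytoskeleton, 3 were higher and 4 lower in wild type with DMSO (25% called, against 14.04% of all genes). Dst, an anchor of intermediate filaments at hemidesmosomes, was 1.20 higher (adjusted p = 3.69e-07). Lower were Lims1, a partner of integrin-linked kinase (-0.98, adjusted p = 7.74e-10), Plec, plectin, which links hemidesmosomes to keratin (-0.93, adjusted p = 2.95e-07), and Fermt2, a kindlin that activates integrins (-0.86, adjusted p = 4.66e-10). Of 12 membrane partners and other laminin receptors, 1 was higher and 4 were lower (41.7% called), among them the tetraspanins Cd9 (-1.35, adjusted p = 2.12e-10) and Cd82 (-0.95, adjusted p = 6.61e-11), Cd47 (-0.89, adjusted p = 1.99e-08) and the syndecan Sdc2 (0.73 higher, adjusted p = 4.89e-05). Of 8 counter-receptors on other cells, Icam1, the ligand of leukocyte integrins, was lower (-0.96, adjusted p = 1.76e-08), as was Jam3 (-0.62, adjusted p = 0.000552), and these were the 2 called (25%).

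No gene of these 5 lists was called with either ligand in wild-type cells. Vcam1, the counter-receptor of Itga4, is named because of its values: it was -0.43 with TCDD (adjusted p = 0.00851) and -0.38 with BaP (adjusted p = 0.00554), past the p threshold but under 1.5-fold. Its wild-type means were 10.15 ± 0.04 with DMSO, 9.72 ± 0.06 with TCDD and 9.77 ± 0.12 with BaP (SD, n = 3).

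**Figure D5:**
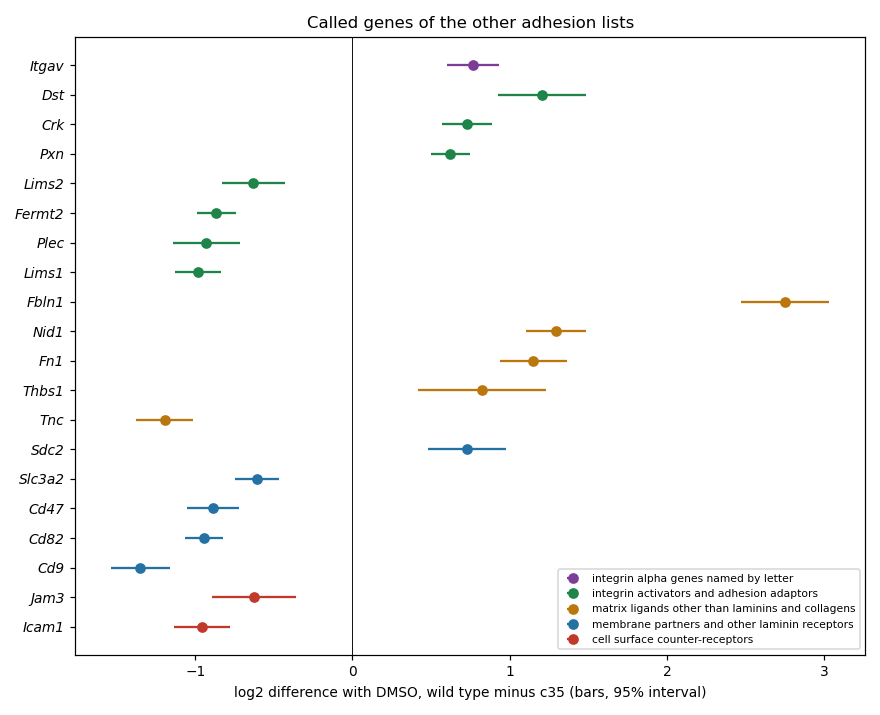
Log2 difference with DMSO (wild type minus c35, bars 95% interval) of the genes called in the other adhesion lists, colored by list. Fbln1 (2.75) lies farthest to the right and Cd9 (-1.35) farthest to the left.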

How the data were processed

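Total RNA of 18 cultures was hybridised to Affymetrix whole-genome mouse arrays. The authors deposited 1 table of log2 signals, which per the submitters' processing notes were made by RMA (background correction, normalization across arrays and summary per probe set; version not given in the sources used here). RMA levels out array-wide shifts and compresses low signals, so differences of dim genes may be understated. These log2 values were used as deposited. Of 45101 probe sets, 64 controls were left out. Of the other 45037, 34945 had 1 symbol in the platform annotation, 932 several and 9160 none. All 30 symbols are current in the RefSeq gene table.

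A mean per group was fitted over all 18 arrays with limma 3.58.1 (R 4.3.3), with an intensity trend in the variance, and p-values were adjusted (Benjamini-Hochberg) over 45037 probe sets. Percentages over all genes use 18193 genes, 1 probe set each. The fit was checked on simulated data. Every gene of the group is named, and array values are printed for those called. Up to 4 called genes of each other list are named by largest difference between the lines with DMSO. The genes and lists were chosen with earlier results of these data known. Replicates are biological per the series' design text. The number of arrays limits the precision. Alternatives changed the variance trend, array weights, normalization, centring, signal filter, value per gene, arrays fitted, minimum change, Actb covariate, replicate block and arrays left out.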

Additional observations from a re-analysis of the deposited data

How the results depend on the processing

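No alternative called any of the 30 genes with a ligand, within c35 or in the response between lines. The calls of Lamb1, Itgb5, Itga7 and Itgb7 between the lines held in all 3 treatments under 28 alternatives. Without the minimum change the counts were 16 with DMSO, 12 with TCDD, 14 with BaP and 11 in all 3 treatments; with the Actb 3′ to 5′ covariate 5 genes were called with BaP and 4 in all 3, and Itga4 and Itga5 (DMSO and TCDD), Itga6 (TCDD) and Itgb1 (BaP) gained calls. Leaving out 1 array gave 7 to 9 genes with DMSO, 7 to 8 with TCDD, 7 to 8 with BaP and 5 to 7 in all 3. With the replicate block the counts were 7, 7 and 8, and it changed no call in these counts; same-numbered arrays did not deviate together (8 of 45 correlations over 0.1, -0.26 to 0.22), so the numbers were not taken to pair the arrays. The mean of all probe sets turned Itga3 to -0.013 with DMSO and -0.073 with TCDD, and ended the Itga3 call with BaP (0.18) and the Itgb6 calls with TCDD (-0.53) and BaP (-0.56), gave Itga6 a call with TCDD (-1.21) and BaP (-1.03), and lowered Lamb1 with DMSO from 2.46 to 1.31, still called. Itga6 with TCDD was also called under median centring, the covariate, without the minimum change, and without c35 TCDD replicate 2 or wild-type TCDD replicate 1 or 2 (-0.57 to -0.62). Median centring ended the Itga3 call with BaP (0.57), and so did the covariate (0.22), which also turned the Itga3 probe set 1460305_at with BaP from -0.56 to 0.21. Itgb4 and Itgb6 gave no value when probe sets under the median signal were left out. Among the other lists with DMSO, counts moved past 1.5 times for adaptors (7 to 17 without the minimum change), membrane partners (5 to 3 with probe set means), letter-named alpha genes (1 to 0 with probe set means) and counter-receptors (2 to 4 without the minimum change, and to 1 under 5 alternatives, 2 of which left out wild-type DMSO replicate 1 or c35 DMSO replicate 3). Low signal limits the 13 dim genes most.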
